A study of Mus musculus with 32 samples.

Results

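The loci of 6 transcription factor genes of endothelial cells, Erg, Fli1, Gata4, Gata2, Sox17 and Maf, were examined for open chromatin in liver endothelial cells (EC) and in Kupffer cells (KC), the resident macrophages of the liver. Each locus was a fixed window of the mouse genome (build mm9), and its members were the ATAC-seq peaks whose centres lay in that window. The 6 windows span 890 kb in all and held 196 of the 229137 peaks of the series, 115 of them endothelial and 81 Kupffer. Peaks that met at least 1 bp of a peak from the other cell type are referred to as shared. All others are restricted, either EC-only or KC-only.

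The study isolated both cell types from male C57BL/6J mice on normal chow. In 16 libraries the mice were REV-ERB a/b double knockout, a loss of both REV-ERB clock repressors that the series places in adult hepatocytes and not in the cells profiled. The other 16 libraries came from WT mice. The 32 libraries form 8 groups of 4: endothelial cells from knockout mice at ZT10 and ZT22 (zeitgeber time, counted in hours from lights on), endothelial cells from WT mice at the same times, and the corresponding 4 groups of Kupffer cells. In ATAC-seq a transposase cuts and tags accessible DNA, here in 50000 isolated cells per library. The promoter or Cre that removes the REV-ERBs, the age of the mice and any pooling of animals were not stated in the labels.

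For each cell type the deposited data are 1 list of peak positions, and no library has a value of its own. The comparison that can be made is therefore endothelial against Kupffer, without replicates, and genotype and time were not analysed here. The depth behind each list is unknown. The Kupffer list is the longer, with 91453 endothelial and 137684 Kupffer peaks, or 0.664 endothelial peaks per Kupffer peak. Absence from a list means only that no peak was called, not that the site was closed. The lists hold no expression, so the purity of either cell type could not be checked against marker genes.

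Erg and Fli1 are ETS-family activators that maintain endothelial identity, and Fli1 also acts in blood cells. Gata4 directs the specialisation of liver sinusoidal endothelium, and Gata2 acts in endothelium and in blood stem and progenitor cells. Sox17, a factor of the SRY-related HMG-box family, is known for its role in arterial endothelium, and Maf (c-Maf), a basic leucine zipper factor, acts both in macrophages and in sinusoidal endothelium. Genes of this kind are commonly regulated by several distal elements spread over and around the gene, which ATAC-seq detects as short accessible intervals. In the gene order of GRCm38, Erg lies between Kcnj15 and Ets2 and Fli1 between Kcnj1 and Ets1. Gata4 lies between Neil2 and Blk, Gata2 between Rpn1 and Dnajb8, Sox17 between Rp1 and Mrpl15, and Maf between Wwox and Dynlrb2. All 6 genes are on the chromosome of their window in that table. No annotation of mm9 was used, so peaks are placed in windows and not in exons, introns or promoters, and a window can reach into a neighbouring gene.

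RefSeq promoter sequences (build GRCm38.p6, from 250 bases before to 50 after a start) were at hand for 2 of the 6 genes, 3 for Erg and 2 for Gata2. Those of Erg are shown because the Erg locus carried the most EC-only peaks. They run 5′ to 3′ on the minus strand of chromosome 16 of GRCm38.p6, at chr16:95586544-95586843, chr16:95530316-95530615 and chr16:95459299-95459598, from the most upstream start to the most downstream. Capitals mark GGAAG, a string that contains the ETS core GGAA, and the GATA motif AGATAA on either strand (CTTCC and TTATCT on the other). GGAA without the final G is not marked.
Erg start 1: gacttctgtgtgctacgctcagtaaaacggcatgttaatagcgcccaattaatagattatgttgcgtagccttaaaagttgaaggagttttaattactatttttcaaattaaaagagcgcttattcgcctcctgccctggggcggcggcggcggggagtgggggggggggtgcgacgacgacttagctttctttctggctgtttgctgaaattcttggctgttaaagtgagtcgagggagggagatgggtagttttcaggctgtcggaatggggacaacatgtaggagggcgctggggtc
Erg start 2: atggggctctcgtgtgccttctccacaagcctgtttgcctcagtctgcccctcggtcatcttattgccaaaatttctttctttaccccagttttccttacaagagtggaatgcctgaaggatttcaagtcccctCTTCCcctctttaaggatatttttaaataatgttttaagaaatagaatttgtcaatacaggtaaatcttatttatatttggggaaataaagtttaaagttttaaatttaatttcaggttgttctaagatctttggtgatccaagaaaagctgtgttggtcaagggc
Erg start 3: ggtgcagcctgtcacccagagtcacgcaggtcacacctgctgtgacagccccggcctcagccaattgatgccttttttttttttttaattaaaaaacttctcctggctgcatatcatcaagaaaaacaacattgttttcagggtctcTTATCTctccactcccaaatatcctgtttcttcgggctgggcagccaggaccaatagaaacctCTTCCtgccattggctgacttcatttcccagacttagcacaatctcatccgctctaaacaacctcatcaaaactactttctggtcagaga

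The first Erg promoter held neither string, the second held 1 GGAAG, and the third held 1 GGAAG and 1 GATA motif. Matches of the shorter core GGAA were not counted. GGAAG occurs in 71.4% of the 32851 promoters of the same length and the GATA motif in 11.2%, so GGAAG is common in any promoter. Neither Gata2 promoter held either string. The first Erg promoter was 50.3% G and C with 16 CpG dinucleotides, the third was 46.0% with 4, and the Gata2 promoters were 69.3% with 32 and 73.7% with 29. A match is a description of the letters. The peaks lie on another build and were not placed on these sequences.

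Across the 6 loci the balance between the cell types was the reverse of that in the whole lists. There were 1.42 endothelial peaks per Kupffer peak in the loci, against 0.664 in the whole lists. Of the 115 endothelial peaks 76 were EC-only, which is 66.1% (95% exact binomial interval 56.7% to 74.7%), against 41.7% of all endothelial peaks. Of the 81 Kupffer peaks 42 were KC-only, which is 51.9% (40.5% to 63.1%), an interval that contains the 60.9% of all Kupffer peaks. Taken over the 118 restricted peaks of the loci, 64.4% were EC-only (55.1% to 73.0%), against 31.2% of all 122013 restricted peaks. These intervals cover counting error only and treat peaks as independent, which neighbouring peaks are not. No test was made, since 1 list per cell type gives no replicates. The 5 loci without Erg had 47 EC-only of 83 restricted peaks, or 56.6%, and the 5 without Fli1 had 63 of 87, or 72.4%.

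The loci did not share this balance evenly. EC-only peaks were 8 of 8 restricted peaks at Sox17 (100%, interval 63.1% to 100%), 15 of 18 at Gata4 (83.3%, 58.6% to 96.4%) and 29 of 35 at Erg (82.9%, 66.4% to 93.4%). At these loci the whole interval lay above the 31.2% of the whole lists. At Gata2 they were 5 of 9 (55.6%, 21.2% to 86.3%), at Fli1 13 of 31 (41.9%, 24.5% to 60.9%) and at Maf 6 of 17 (35.3%, 14.2% to 61.7%). The intervals of Gata2, Fli1 and Maf contain the share of the whole lists. In the order from Sox17 to Maf each locus overlaps the next within its interval, so adjacent ranks are not told apart at these numbers. The intervals of Sox17 and Erg lie above those of Fli1 and Maf, but they are too narrow where neighbouring peaks depend on each other.

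**Figure D1:**
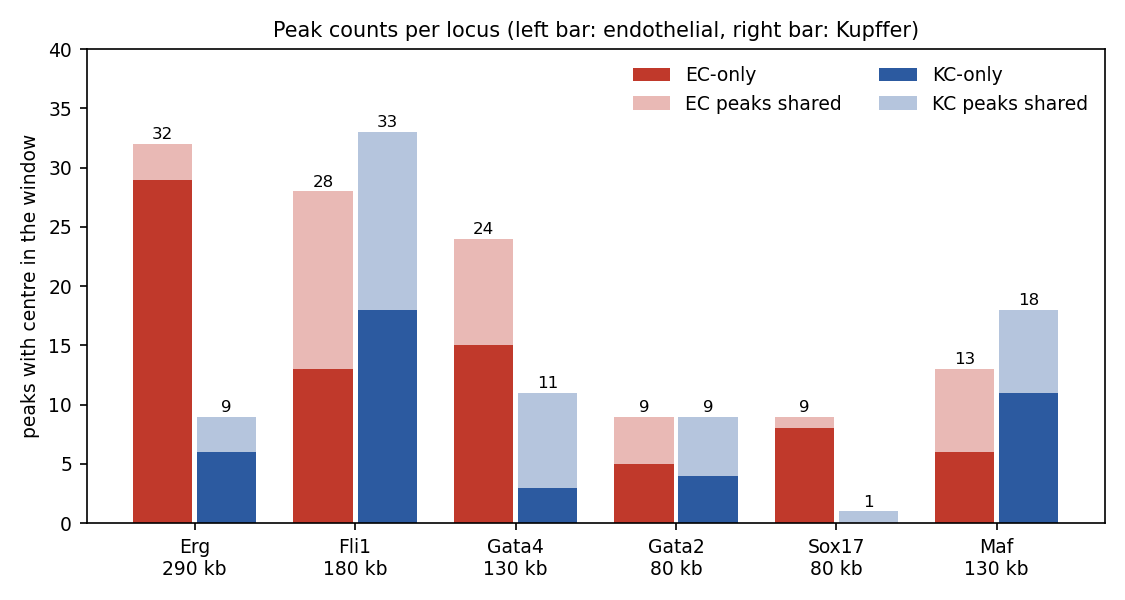
Number of peaks with their centre in each locus window (y axis), with endothelial peaks in the left bar and Kupffer peaks in the right bar of each locus; full colour marks restricted peaks and pale colour shared ones. Endothelial peaks outnumber Kupffer peaks 32 to 9 at Erg, 24 to 11 at Gata4 and 9 to 1 at Sox17, and Kupffer peaks are the more numerous at Fli1 and Maf. The whole lists hold 0.664 endothelial peaks per Kupffer peak, against 0.848 at Fli1 and 0.722 at Maf.

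**Figure D2:**
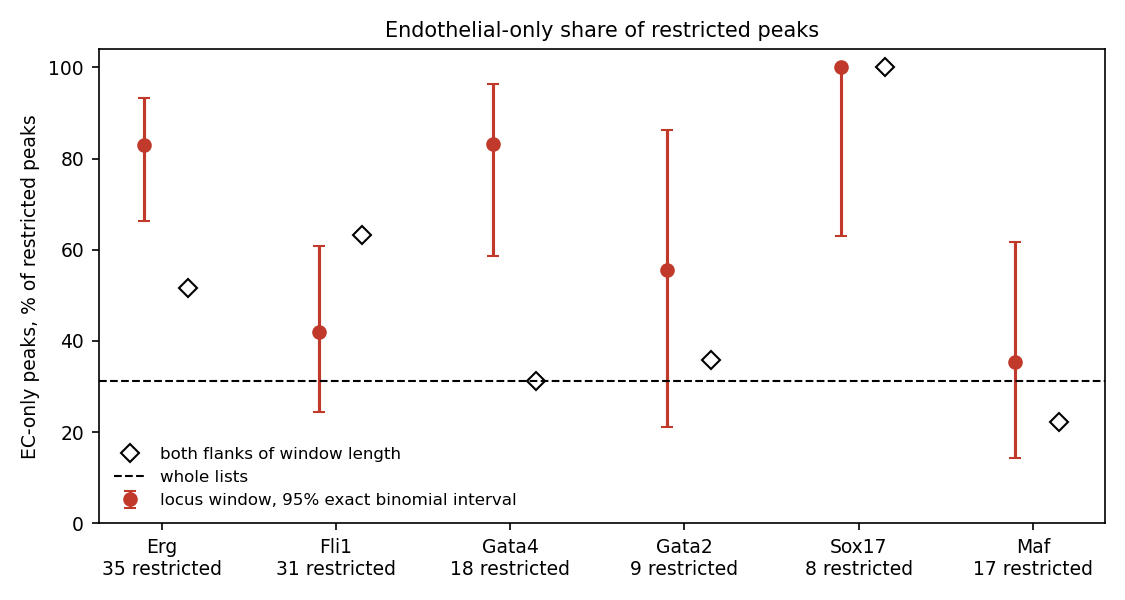
EC-only peaks as a percentage of restricted peaks per locus (circles, bars: 95% exact binomial interval), in the flanks of window length, both sides pooled (diamonds), and in the whole lists (dashed line, 31.2%). Sox17, Gata4 and Erg lie above the line with their whole intervals.

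The Erg locus, on chromosome 16 between 95550001 and 95840000, held 32 endothelial and 9 Kupffer peaks. Of these, 29 endothelial peaks were EC-only, 6 Kupffer peaks were KC-only, and 3 sites were shared. The EC-only peaks were not spread over the whole window. All 29 lay in 123 kb between 95563195 and 95686547, followed by 141 kb, from 95686548 to 95827096, without any endothelial peak. In that endothelial-free stretch lay 4 KC-only peaks, at 95718383 to 95718579, 95724773 to 95724936, 95807188 to 95807389 and 95807484 to 95807634. In the EC-only block itself 1 KC-only peak and 2 shared sites were called.

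The first part of the Erg block was an uninterrupted run of 15 EC-only sites from 95563195 to 95616538, with no Kupffer peak among them in 53.3 kb. Of the 23063 EC-only runs in the genome, 39 (0.169%) were at least as long, and the longest had 31 sites. Those 39 runs held 1.84% of all EC-only sites. A KC-only peak at 95619218 to 95619368, a shared site at 95625146 a single EC-only peak at 95642988 and a shared site at 95653775 came next. From 95654441 to 95686547 a further 13 EC-only peaks followed each other. The fullest interval of 10 kb, from 95680001 to 95690000, held 5 EC-only and no KC-only peaks. Of the 34 pairs of neighbouring restricted peaks at Erg, 3 were of unlike type. The share of unlike pairs in the whole lists was not computed. The median EC-only peak at Erg lay 21.0 kb from the nearest Kupffer peak, and 24 of 29 were over 10 kb away.

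All 3 shared Erg sites were wider in endothelial cells. The widest spanned 368 bp in endothelial cells, from 95827097 to 95827464, and 193 bp in Kupffer cells. The others spanned 252 and 299 bp in endothelial cells, and 151 bp each in Kupffer cells. The widest EC-only peak at Erg, of 344 bp, ran from 95594615 to 95594958, and 4.23% of all endothelial peaks are at least as wide. Among 9081 windows of 290 kb tiled over chromosomes 1 to 19 and X, 31 (0.341%) held at least 29 EC-only peaks, while 46.0% held at least 6 KC-only peaks.

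**Figure D3:**
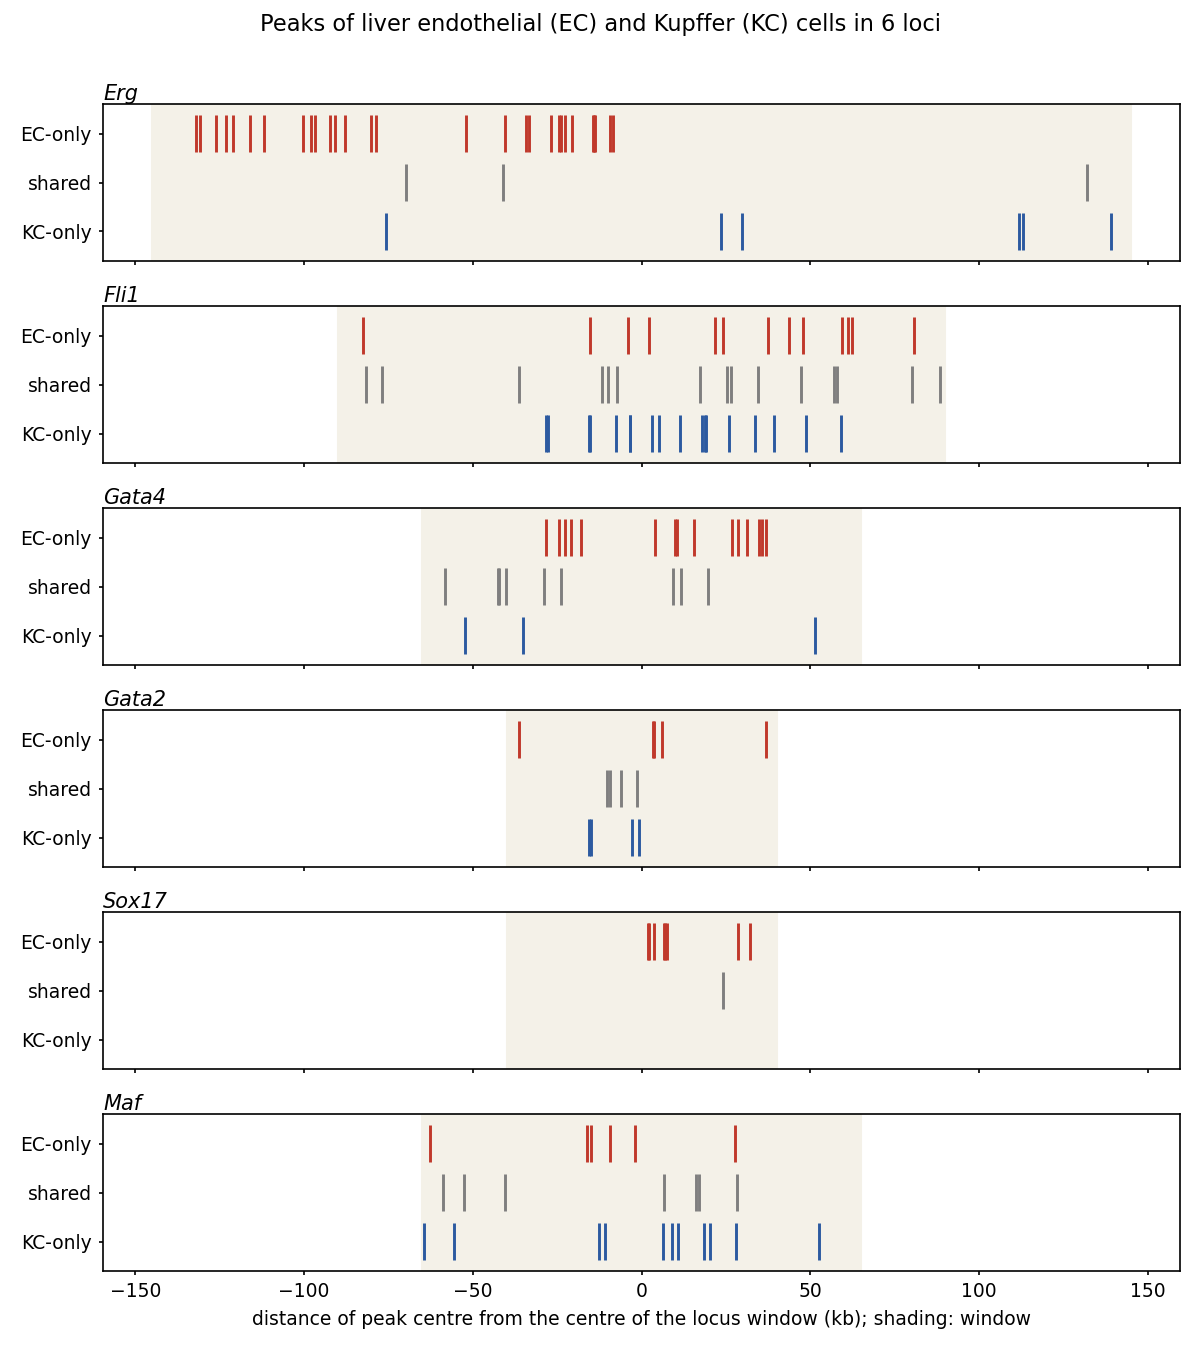
Position of each peak as the distance of its centre from the centre of its locus window (kb, x axis), in rows for EC-only, shared (endothelial peak drawn) and KC-only peaks; shading marks the window. Erg shows EC-only peaks to the left of the centre and 4 KC-only peaks in the endothelial-free stretch to its right, Fli1 shows the classes intermixed, and Sox17 has no KC-only peak.

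Fli1, the other ETS factor, showed another pattern. Its window on chromosome 9, between 32200001 and 32380000, held 28 endothelial and 33 Kupffer peaks, of which 13 were EC-only, 18 were KC-only and 15 in each list were shared. KC-only peaks were the more numerous in count only: EC-only peaks were 41.9% of the restricted peaks (24.5% to 60.9%), against 31.2% in the whole lists. In the wider 50% of each list, with sharing found again among the peaks kept, the counts were 14 EC-only and 11 KC-only. With peaks of one list within 500 bp joined there were 11 of each. Peaks of the cell types were interleaved: 14 of the 30 pairs of neighbouring restricted peaks, with shared sites passed over, were of unlike type. No whole-list share of such pairs was computed to set beside this count. The longest runs, which shared sites end, were 3 EC-only and 4 KC-only sites. Runs at least that long make up 13.6% of the EC-only and 17.9% of the KC-only runs in the genome. They hold 36.8% of EC-only and 47.1% of KC-only sites. No EC-only peak was farther than 3.58 kb from a Kupffer peak, and the median distance was 0.759 kb. Within 1 kb of a peak of the other list lay 7 of 13 EC-only and 11 of 18 KC-only peaks. In the whole lists 25.9% of EC-only and 22.5% of KC-only peaks lay that close. Neither list had a peak in the 40.3 kb from 32213215 to 32253512.

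The widest shared Fli1 site lay near the low end of the window. It spanned 422 bp in endothelial cells, from 32208221 to 32208642, and 370 bp in Kupffer cells, from 32208236 to 32208605. Peaks that wide make up 1.12% of the endothelial and 1.84% of the Kupffer list. The widest EC-only peak spanned 360 bp, from 32327222 to 32327581, and the widest KC-only peak 245 bp, from 32286343 to 32286587. KC-only peaks were fullest between 32300001 and 32310000, with 4 of them and no EC-only peak. Fli1 was dense in both kinds: 2.79% of windows of 180 kb held at least 13 EC-only peaks, and 9.55% held at least 18 KC-only peaks. The flanks of the Fli1 window had a higher EC-only share than the window itself, 31 of 49 restricted peaks or 63.3%, of which 25 EC-only and 15 KC-only peaks lay on the side of higher coordinates.

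Gata4, on chromosome 14 between 63790001 and 63920000, held 24 endothelial and 11 Kupffer peaks. Of these, 15 were EC-only and 3 KC-only, and the 8 shared Kupffer peaks met 9 endothelial ones. EC-only peaks were 62.5% of the endothelial peaks of the locus, and KC-only peaks were 27.3% of its Kupffer peaks (6.02% to 61.0%). The Kupffer balance depends on the definitions: there were 6 KC-only and 5 shared Kupffer peaks when peaks had to share at least 50% of the length of each, and 11 of each in a window widened by 25% of its length on each side. In the widened window 18 of 29 restricted peaks were EC-only, or 62.1%. The EC-only peaks lay in 65.3 kb between 63826732 and 63892010. Both ends of that block held clusters: 4 EC-only peaks between 63830001 and 63840000, and a run of 6 within 10.1 kb, from 63881862 to 63892010. Runs of at least 6 make up 2.61% of the EC-only runs in the genome and hold 13.3% of all EC-only sites. The 3 KC-only peaks, at 63802616 to 63802766, 63819769 to 63819951 and 63906289 to 63906439, all lay outside the block.

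The widest shared Kupffer peak at Gata4 spanned 590 bp, from 63812290 to 63812879, and 75 Kupffer peaks (0.0545%) are at least that wide. In endothelial cells the same site was covered by peaks of 288 and 293 bp, at 63812228 to 63812515 and 63812559 to 63812851. The widest shared endothelial peak of the locus spanned 421 bp, from 63874631 to 63875051, against 233 bp in Kupffer cells. The widest EC-only peak spanned 310 bp, from 63890398 to 63890707. Of 20280 windows of 130 kb, 119 (0.587%) held at least 15 EC-only peaks, and 41.6% held at least 3 KC-only peaks. The flanks of Gata4 had 14 EC-only of 45 restricted peaks, or 31.1%, with 22 KC-only and 3 EC-only peaks on the side of lower coordinates, where Neil2 is the next protein-coding gene in the gene order.

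Gata2, on chromosome 6 between 88110001 and 88190000, held 9 peaks in each list. There were 5 EC-only and 4 KC-only peaks, and 4 shared endothelial peaks met 5 Kupffer ones. Kupffer peaks and shared sites took the middle of the window, with KC-only peaks between 88134429 and 88149483, and no Kupffer peak was called in the 40.5 kb from 88149484 to the end. The EC-only peaks comprised 3 between 88150001 and 88160000, of 185 to 243 bp, and 1 near each end of the window, both 151 bp wide. The widest shared endothelial peak spanned 349 bp, from 88139605 to 88139953, and was met in Kupffer cells by peaks of 172 and 151 bp. The widest shared Kupffer peak spanned 271 bp, from 88148563 to 88148833, against 213 bp in endothelial cells. Of windows of 80.0 kb, 6.97% held at least 5 EC-only peaks and 27.0% at least 4 KC-only peaks. Of those with a peak of either list the shares were 10.9% and 42.3%.

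Sox17, on chromosome 1 between 4440001 and 4520000, was the locus most free of Kupffer peaks. It held 9 endothelial peaks and 1 Kupffer peak, and that Kupffer peak was shared, so 0 of 1 Kupffer peaks were KC-only, a number too small to limit that share (interval up to 97.5%). Of 32957 windows of this length 49.9% held no KC-only peak, and of the 21081 that held a peak of either list 21.6% held none. At least 8 EC-only peaks were found in 626 windows, which is 1.90% of all and 2.97% of those with a peak. The EC-only peaks of Sox17 were concentrated in a run of 6 within 5.99 kb, from 4481750 to 4487743, and the remaining pair, at 4508452 to 4508602 and 4511994 to 4512144, were 151 bp wide. Of the EC-only runs in the genome 2.61% were at least as long, and such runs held 13.3% of all EC-only sites. In the Sox17 run the widths were 219, 251, 513, 343, 239 and 229 bp in order of position. The peak of 513 bp, from 4483402 to 4483914, was the widest EC-only peak of the 6 loci, and 263 endothelial peaks (0.288%) are at least as wide. The shared site at 4504100 to 4504250 was 151 bp wide in both lists. The flanks of Sox17 also had no KC-only peak, with 5 EC-only peaks in all.

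Maf, on chromosome 8 between 118150001 and 118280000, was the locus with the lowest EC-only share. It held 13 endothelial and 18 Kupffer peaks, with 6 EC-only, 11 KC-only and 7 shared in each list. As at Fli1, the kinds were intermixed: 8 of the 16 pairs of neighbouring restricted peaks, with shared sites passed over, were of unlike type. This count too has no background, as the whole-list share of unlike pairs was not computed. No run exceeded 2 sites for either kind, but shared sites end a run. In the genome 31.7% of EC-only and 51.4% of KC-only runs have at least 2 sites. The KC-only peaks from 118221280 to 118235375 had shared sites and no EC-only peak among them. The median EC-only peak at Maf lay 1.75 kb from the nearest Kupffer peak, and the nearest lay 0.0290 kb away, where an EC-only peak from 118242559 to 118242838 was followed by a KC-only peak from 118242868 to 118243018. The widest shared site spanned 466 bp in endothelial cells, from 118230885 to 118231350, and 345 bp in Kupffer cells, from 118231033 to 118231377. Peaks that wide make up 0.582% of the endothelial and 2.79% of the Kupffer list. Next to that site, between 118220001 and 118230000, lay 3 KC-only peaks and no EC-only peak. The widest EC-only peak at Maf spanned 311 bp and the widest KC-only peak 279 bp. Of windows of 130 kb, 10.2% held at least 6 EC-only peaks and 14.4% at least 11 KC-only peaks.

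**Figure D4:**
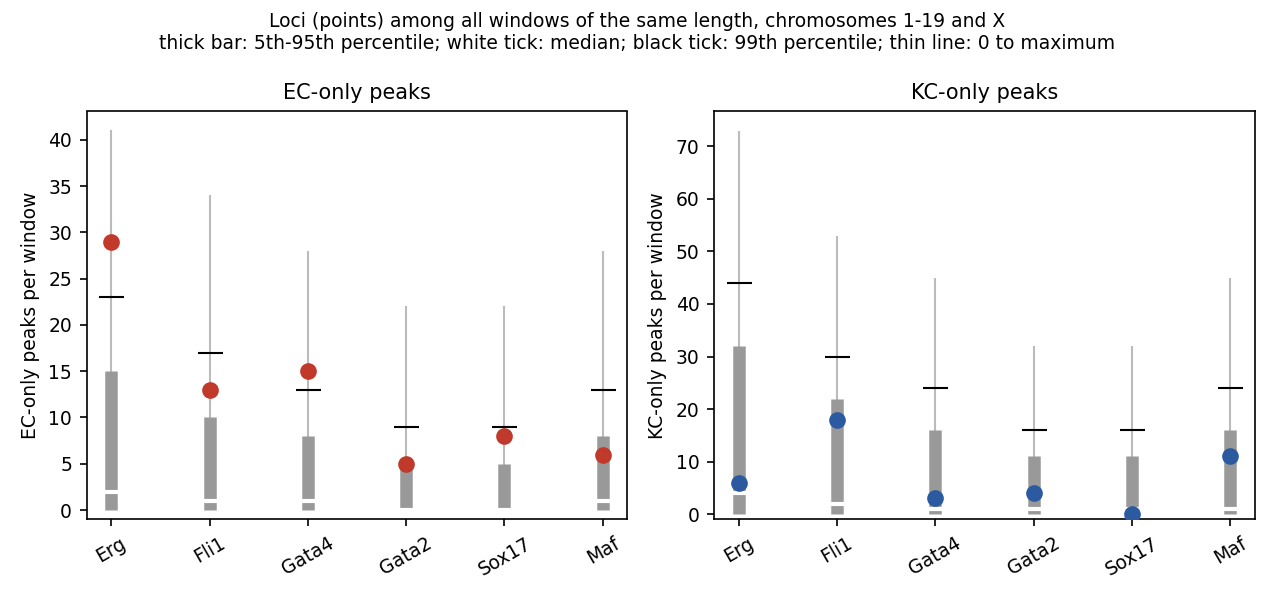
Number of EC-only peaks (left) and KC-only peaks (right) in each locus (points) among all windows of the same length on chromosomes 1 to 19 and X; thick bars span the 5th to 95th percentile, white ticks mark the median, black ticks the 99th percentile, and thin lines reach the maximum. Erg and Gata4 exceed the 99th percentile for EC-only peaks, and no locus does for KC-only peaks.

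The regions beside the loci were compared in the same way. Flanks of the same length on both sides, 1780 kb in all, held 91 EC-only and 107 KC-only peaks, so that 46.0% of their restricted peaks were EC-only (38.9% to 53.2%), against 64.4% inside the loci. The flanks thus lay between the loci and the whole lists. The EC-only share was higher inside than in the flanks at Erg (82.9% against 51.7%), Gata4 (83.3% against 31.1%), Gata2 (55.6% against 35.7%) and Maf (35.3% against 22.2%). At Gata2 and Maf the interval of the locus contains the flank share. Their flanks held 5 EC-only and 9 KC-only peaks at Gata2, and 6 and 21 at Maf. It was equal at Sox17, at 100% in both, and lower inside at Fli1 (41.9% against 63.3%). The flank of Erg toward lower coordinates had 9 EC-only and 2 KC-only peaks, and that toward higher coordinates, where Ets2 is the next protein-coding gene, had 21 and 26.

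The rule that defines the loci does not use peak width, but width was chosen as a measure with earlier results of these data known. The 76 EC-only peaks of the loci had a median width of 215 bp, against 171 bp for all EC-only peaks. The smallest common width, 151 bp, was found in 18 of them, or 23.7% (14.7% to 34.8%), against 44.6% of all EC-only peaks. Widths of at least 300 bp were found in 9, or 11.8%, against 6.35%. The median was above 171 bp at each of the 6 loci: 191 bp at Erg, 233 bp at Fli1, 201 bp at Gata4, 185 bp at Gata2, 234 bp at Sox17 and 259 bp at Maf. EC-only peaks of the flanks lay between, with a median of 187 bp and 38.5% at 151 bp (28.4% to 49.2%). KC-only peaks of the loci had a median width of 192 bp, against 194 bp in the whole list. None of the 42 reached 300 bp, against 3.26% of the list. With 3 counts taken as the limit that a count of 0 allows, the share could be up to 7.14%. That limit is approximate and not an exact interval. How libraries were merged into a list can set peak widths; its part in these widths was not tested.

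**Figure D5:**
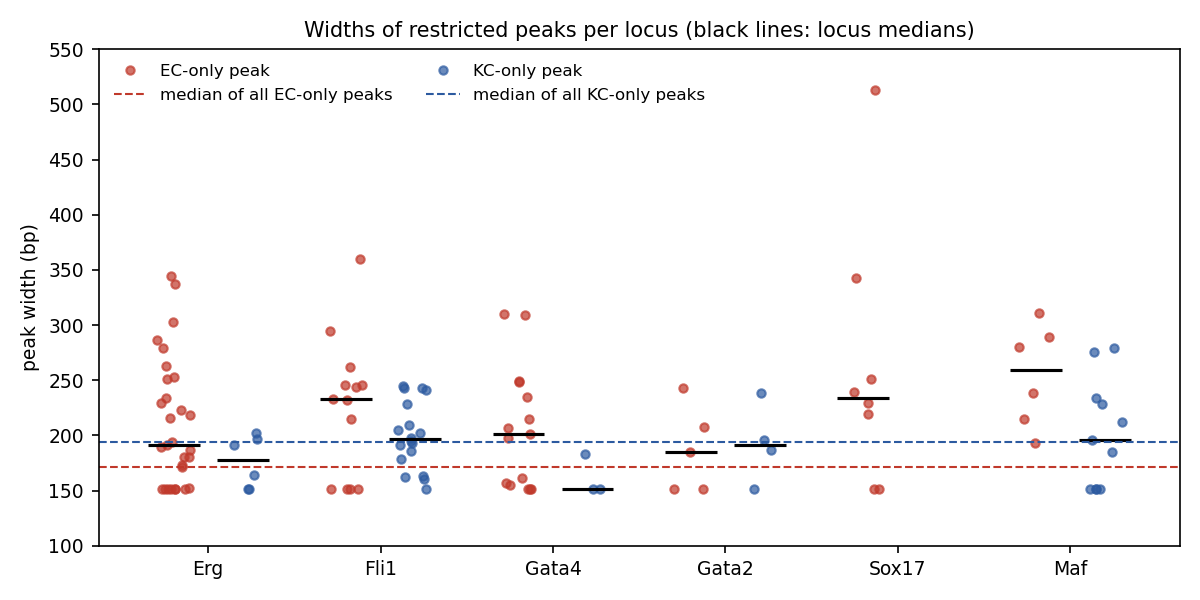
Width in bp (y axis) of every EC-only and KC-only peak of the 6 loci (points, EC-only left of KC-only; black lines are locus medians), with the medians of all EC-only and all KC-only peaks as dashed lines. EC-only medians lie above 171 bp at each locus, and the Sox17 peak of 513 bp stands apart.

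In the 40 overlapping pairs of peaks, the endothelial peak was the wider in 26, the Kupffer peak in 10, and 4 were equal. The endothelial peak was thus wider in 65.0% of pairs (48.3% to 79.4%), against 43.4% of the 54534 pairs of the whole lists. The median widths were 243 bp in endothelial and 208 bp in Kupffer cells, against 211 and 208 bp in the whole lists. The share was 3 of 3 at Erg, 11 of 15 at Fli1, 6 of 9 at Gata4, 3 of 5 at Gata2, 0 of 1 at Sox17 and 3 of 7 at Maf. The centres of paired peaks lay a median of 36.5 bp apart in the loci and 25.0 bp in the whole lists.

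The distance between the cell types also differed among the loci. EC-only peaks of the 6 loci lay a median of 7.55 kb from the nearest Kupffer peak, against 3.67 kb for all EC-only peaks, and 35 of 76 (46.1%) were over 10 kb away, against 29.4%. Of those 35, 24 were at Erg and 6 at Sox17. Within 1 kb of a Kupffer peak lay 14 of the 76 (18.4%), against 25.9% of all EC-only peaks. Pooled KC-only peaks of the loci were closer to endothelial peaks, at a median of 1.86 kb, against 4.80 kb for all KC-only peaks. Within 1 kb lay 14 of 42 (33.3%), against 22.5%. Of those 14, 11 were at Fli1, 2 at Maf and 1 at Gata2, so the pooled values rest largely on Fli1. The KC-only median was 0.706 kb at Fli1, 2.01 kb at Maf and 2.90 kb at Gata2. At Gata4 (5.65 kb) and Erg (19.6 kb) it was above that of the whole list.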

How the data were processed

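ATAC-seq was performed on liver endothelial and Kupffer cells in 32 libraries. The authors deposited 1 list per cell type with 3 columns, named as nucleosome-free (nfr) peaks, and its positions (start and end in bp) carry no count, score or p-value. The submitters' processing notes name Bowtie and HOMER, and mm9 as the build. Versions, threshold, transposase offsets and the pooling of libraries were not stated.

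Sharing was computed with NumPy 2.4.6 in Python 3.11.15, was checked with bedtools 2.31.1, which gave the same numbers (53324 endothelial and 53800 Kupffer peaks shared), and was tested on simulated data, where 0 of 20000 peaks were misclassified. Intervals are exact (Clopper-Pearson, SciPy 1.17.1). Windows of each locus length were tiled from the first base of each of 20 chromosomes up to the last peak. Runs count sites of the union of both lists, and shared sites end a run. All 6 genes were named; within a locus the rule named the widest peak of each class, the longest run of each kind and the fullest 10 kb, and other peaks were chosen after their values were seen. The windows, the lists and the measures were chosen with earlier results of these data known. The planned tests of genotype and time were not run, as no library has values. Positions are counted from 1.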

Additional observations from a re-analysis of the deposited data

How the results depend on the processing

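The EC-only share of restricted peaks over the loci, 64.4%, was 74.3% in the wider 50% of each list (33.9% over those lists) and stayed within its interval in every other setting run. Where narrow peaks were left out, sharing was found again among the peaks kept. An EC-only peak in those settings can therefore meet a Kupffer peak that was left out, and a KC-only peak an endothelial one. The EC-only share of endothelial peaks, 66.1%, became 76.4% in the wider 50% and 56.6% without Erg. The KC-only share of Kupffer peaks, 51.9%, became 39.5% when peaks up to 500 bp apart were treated as shared. That looser rule acted on the whole list as well, where KC-only peaks fell from 83884 to 71590 of 137684. The 39.5% therefore cannot be set against the 60.9% of the main setting. A whole-list share of endothelial peaks is not given for the wider 50%, so 76.4% is not compared with 41.7%. In the wider 50%, the EC-only share of restricted peaks was 94.1% at Erg and 100% at Gata4. The share at Gata4 was 100% with its window trimmed by 25% of its length on each side and 62.1% with it widened as much. Over the settings run the share spanned 77.6% to 94.1% at Erg, 30.4% to 56.0% at Fli1, 42.9% to 80.0% at Gata2 and 24.0% to 45.5% at Maf, and was 100% at Sox17 throughout. Of 192 alternative counts per locus 54 moved by over 1.5 times. Of 37 shares of windows, widths and pairs, 11 moved beyond their intervals, all 11 on leaving out windows without peaks, where the share of windows with at least as many EC-only peaks became 0.833% for Gata4, 10.9% for Gata2, 2.97% for Sox17, 3.73% for Fli1 and 14.5% for Maf, and stayed within its interval for Erg (0.422%). Leaving out a locus and the share of windows without KC-only peaks among those with a peak were chosen after seeing the data. No paired analysis was possible because neither list separates its libraries, which also kept any replicate from being left out. Unknown depth limits every statement on a missing peak.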
